A study of Sorghum bicolor with 8 samples.

Results

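Leaf was set against Callus III in sorghum (Sorghum bicolor), with 2 libraries of each tissue, and all differences are signed as Leaf minus Callus III. Of 34129 genes in the files, 20730 reached 1 FPKM in at least 2 of these 4 libraries and were compared. FPKM counts the sequenced fragments of a gene, scaled to the length of its transcript and to the size of the library. The 5 genes just inside this limit had a second-highest value of 1.0005 to 1.0017 FPKM in the 4 libraries, and the 5 just outside 0.99753 to 0.99997.

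All 4 libraries came from the wild-type line Hiro-1. Callus III is 1 of 3 callus types cut from immature embryos of 1 to 2 mm, collected 13 to 15 days after flowering. The embryos spent 3 weeks in darkness at 25 °C on a medium that induces callus, and the callus was then subcultured for 20 days. The Leaf samples were leaves regenerated from Callus II, not from Callus III. The labels place regeneration on differentiation medium with days of 16 h light, at 2000 lx, and nights of 8 h. The comparison is therefore between a callus type and leaves of another callus lineage, and tissue, light, medium and lineage cannot be told apart in it. Nothing in the labels tells if the 2 libraries of a tissue, named biological replicates, had cultures of their own, so the p-values measure only the spread between these samples, part of which may be technical.

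Callus is a mass of plant cells that divide in culture without forming organs, kept in that state by the hormones of the medium and living on its sugar. A leaf is an organ of several cell types whose main work is photosynthesis, and in sorghum this is divided between mesophyll and bundle sheath cells. Textbook differences between the tissues are thus the photosynthetic apparatus and cell division. They could not be looked up here, because the files give gene identifiers without names or descriptions and 0 of the identifiers were found in the gene table at hand. The tissue labels could for the same reason not be checked against marker genes, and no sequences were at hand to print. Genes are given by identifier, 2 in each direction, and the rest as groups by level, by locus length and by place in the genome.

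Leaf and Callus III differed in a majority of the genes compared. In limma with Benjamini-Hochberg adjustment, 14561 of 20730 genes (70.2%) were called at an adjusted p under 0.05. Of these, 8864 (42.8% of genes tested) were higher in Leaf and 5697 (27.5%) were lower. Differences of at least 2-fold on the log2(FPKM + 1) scale were found for 5520 higher genes (26.6%) and 3453 lower genes (16.7%). An 8-fold limit left 1166 genes above (5.62%) and 621 below (3.0%). At 64-fold or more the directions were nearly even, with 158 genes higher and 153 lower, or 0.762% and 0.738% of genes tested. These counts hold genes listed at 0 in a tissue, or under 1 FPKM there, whose size of difference depends on the pseudocount of 1 FPKM. Levels here are of bulk tissue, where fewer cells of a type and less RNA per cell cannot be told apart.

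Part of this count rests on genes that entered through 1 tissue. Of the genes compared, 2449 reached 1 FPKM in both Leaf libraries and in neither Callus III library, and 1632 did the reverse. Such genes had to differ and support nothing by their direction. Among the 15561 genes at 1 FPKM or more in all 4 libraries, 6016 (38.7%) were called higher in Leaf and 3961 (25.5%) lower, with a median log2 difference of 0.16. Over all genes compared the median was 0.233. Median-ratio scaling moved that median by -0.142 and scaling to equal sums without the 100 highest genes by -0.16, so a difference near these sizes has no fixed sign. Higher genes made up 60.9% of calls with the deposited values, 54.6% with median-ratio scaling and 53.8% with equal sums.

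Replicates lay close together. The median absolute difference between replicates was 0.102 on the log2(FPKM + 1) scale in Leaf and 0.206 in Callus III. The depth behind these values is unknown, as no read totals were at hand. Genes above 0 numbered 24816 and 25451 in Callus III, fewer than the 26617 and 26787 of Leaf. With 2 libraries against 2, a 2-sided permutation test cannot go below 0.333, so each call rests on the spread that limma shares across genes and groups.

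**Figure D1:**
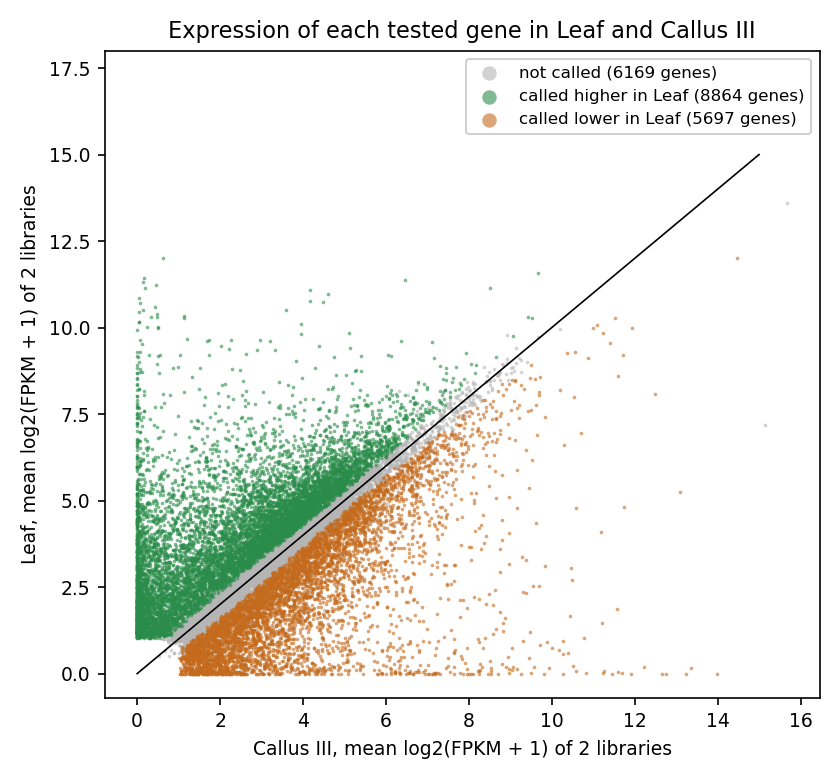
Each point is 1 of 20730 genes, placed by its mean log2(FPKM + 1) over the 2 Callus III libraries (horizontal) and the 2 Leaf libraries (vertical), with the line of equal levels in black. The 8864 genes called higher in Leaf lie above the line and the 5697 called lower below it, and genes near 0 in one tissue form dense edges along both axes.

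Some transcripts were among the most abundant of leaf and close to undetected in Callus III. Sobic.009G234600.v3.2, which spans 57389228 to 57390570 on chromosome 9, reached 3652 and 4618 FPKM in the Leaf libraries and 0.465 and 0.639 FPKM in Callus III. It was listed at 0 in all libraries of Callus I and Callus II. The Leaf libraries lay far above the Callus III libraries, and the log2 difference was 11.37 ± 0.16 (SE, n = 2 per group; limma adjusted p = 4.23e-08). With a pseudocount of 0.1 FPKM in place of 1 FPKM it was 12.63, as the Callus III levels lie under 1 FPKM. Callus III minus the mean of Callus I and Callus II was 0.63 for this gene, with a 95% interval of 0.31 to 0.95 (limma adjusted p = 0.00654). That call rests on levels under 1 FPKM.

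Sobic.010G241000.v3.2, which spans 58267930 to 58269475 on chromosome 10, had 2685 and 2858 FPKM in Leaf and 0.148 and 0.108 FPKM in Callus III. Its log2 difference was 11.26 ± 0.33 (SE, n = 2 per group; limma adjusted p = 2.45e-07), and 13.57 with a pseudocount of 0.1 FPKM. Callus II had 2.445 and 0.574 FPKM of it, and Callus I 0 and 0.068 FPKM. Callus III minus the mean of Callus I and Callus II was -0.46 for this gene, with a 95% interval of -1.13 to 0.21 (limma adjusted p = 0.21), so a difference among callus types was not shown.

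The genes that were lower in Leaf by the most reached even greater levels in Callus III. The gene Sobic.007G075301.v3.2, from 8648504 to 8649372 on chromosome 7, had 22792 and 11428 FPKM in the Callus III libraries, where both Leaf libraries list 0 (limma adjusted p = 7.79e-08). It made up 3.09% and 1.59% of the FPKM sum of the Callus III libraries. No fold is given, since a listed 0 may stand for an estimate that failed. The replicates of Callus III differed in level, yet both lay far above every other library. The locus just before it, 447 bp away, behaved likewise, at 10510 and 4530 FPKM in Callus III and 0 in Leaf (limma adjusted p = 2.01e-07). That neighbouring locus overlaps another locus, so its reads may be shared.

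Sobic.006G167700.v3.2, from 52481186 to 52482435 on chromosome 6, had 10389 and 9039 FPKM in Callus III, and Leaf again lists 0 (limma adjusted p = 4.23e-08). The other callus libraries held little of it, 0.164 and 0.636 FPKM for Callus I, 0 and 0.042 FPKM for Callus II. Callus III was called higher than the mean of those callus types (limma adjusted p = 3.54e-08), with no fold given because their levels lie under the pseudocount. In that contrast among callus types, 11207 genes (54.1%) were called, 4003 (19.3%) higher and 7204 (34.8%) lower in Callus III. The split turned with scaling, and higher genes made up 35.7% of its calls as deposited, 54.4% with median-ratio scaling and 54.7% with equal sums. Both contrasts use the same Callus III libraries.

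**Figure D2:**
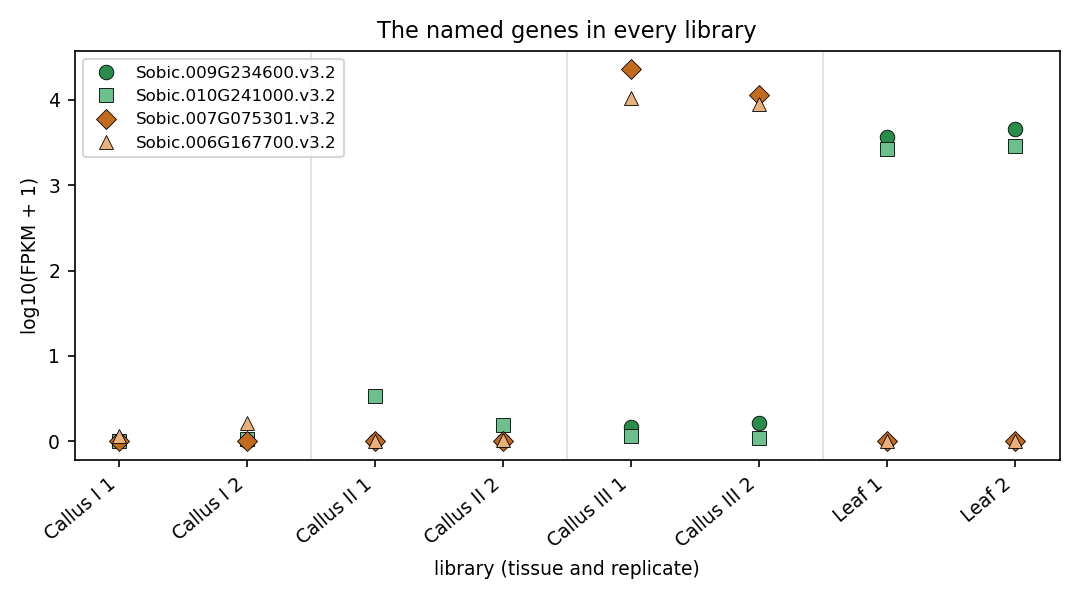
The 4 named genes are plotted as log10(FPKM + 1) in each of the 8 libraries, 1 symbol per gene, with grey lines between tissues. The 2 green genes are high in the Leaf libraries alone, at 2685 to 4618 FPKM, and the 2 orange genes in the Callus III libraries alone, at 9039 to 22792 FPKM.

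The same pattern ran through the 12 largest differences in each direction. The 12 highest in Leaf had medians of 1649 and 1891 FPKM in the Leaf libraries and at most 0.742 FPKM in a Callus III library. Across Callus I and Callus II none of them exceeded 3.645 FPKM, and 10 of the 12 stayed under 1 FPKM in all 4 of those libraries. The 12 lowest in Leaf had medians of 5396 and 3623 FPKM in Callus III and at most 0.147 FPKM in Leaf. All 12 were under 1 FPKM in every Callus I and Callus II library. These 12 alone made up 12.3% and 8.2% of the FPKM sum of the Callus III libraries, while the 12 of Leaf made up 3.83% and 4.28% of the sum in Leaf. The rank of these genes used the contrast itself, so these values describe them and test nothing.

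More genes were on in Leaf and off in Callus III than the reverse, in a classification chosen after the data had been seen. A gene was taken as on at 10 FPKM or more in both libraries of a tissue and as off under 1 FPKM in both. In this sense 557 of the 20730 genes compared were on in Leaf and off in Callus III, and 319 were on in Callus III and off in Leaf. With median-ratio scaling the counts were 547 and 349, and with equal sums 533 and 355. Of the 557, 135 were listed at 0 in both Callus III libraries, and of the 319, 50 were listed at 0 in both Leaf libraries. The Leaf genes had medians of 23.68 and 24.89 FPKM in Leaf and 0.079 and 0.112 FPKM in Callus III. The Callus III genes had medians of 40.33 and 42.38 FPKM in Callus III and 0.147 and 0.184 FPKM in Leaf.

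The other callus types mostly shared the off state of the Leaf genes. Of the 557, 382 (68.6%) were under 1 FPKM in all 4 Callus I and Callus II libraries. Those at 10 FPKM or more in both libraries of a type numbered 18 (3.23%) in Callus I and 2 (0.359%) in Callus II, which was the source of the leaves. The 319 Callus III genes were more often present in other callus. Of them, 131 (41.1%) were under 1 FPKM in all 4 of those libraries, while 78 (24.5%) reached 10 FPKM in Callus I, 99 (31.0%) in Callus II and 55 in all 4. The 557 genes were chosen as off in a callus type and the 319 as on in a callus type, so the choice may set part of these shares. The same shares over all genes compared were not computed, so whether these are unusual cannot be told. Of the 34129 genes in the files, 17953 to 18559 reached 1 FPKM in a single Callus I or Callus II library. These shares are of genes, which are not independent replicates, and the difference between them was not tested.

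**Figure D3:**
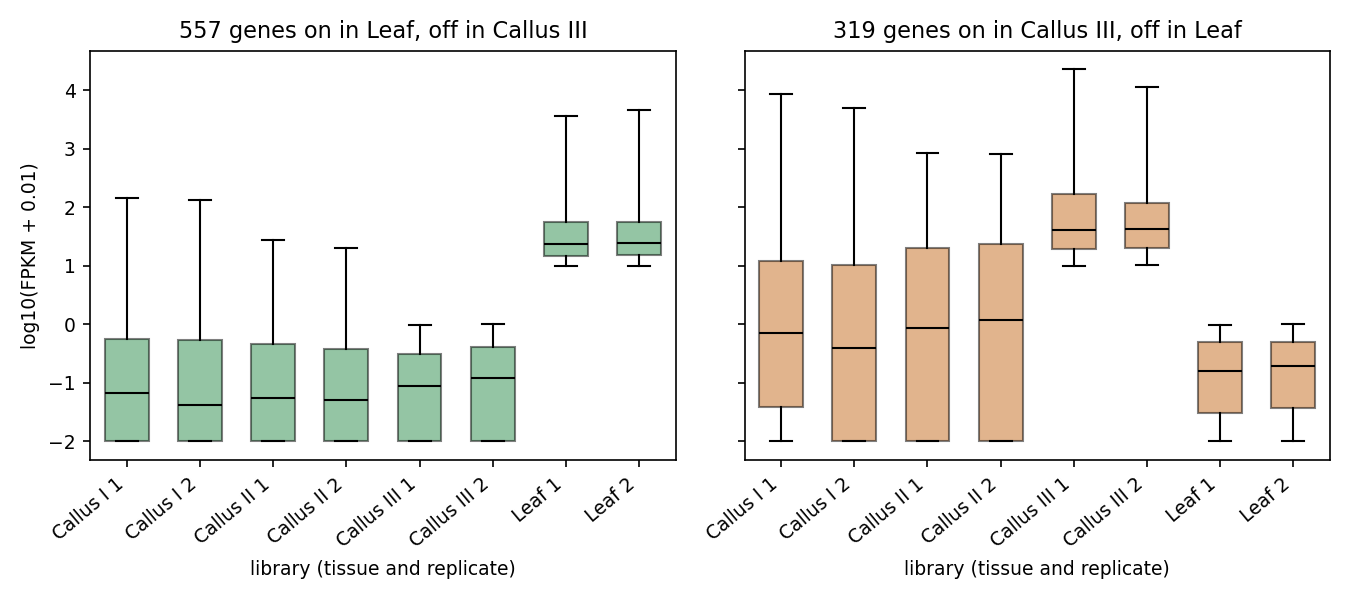
Boxes give the quartiles and whiskers the lowest and highest value, as log10(FPKM + 0.01), of the 557 genes on in Leaf (left) and the 319 genes on in Callus III (right) in each of the 8 libraries. The levels in Leaf and Callus III follow from how the genes were chosen. In Callus I and Callus II the medians are 0.031 to 0.056 FPKM for the Leaf genes and 0.382 to 1.189 FPKM for the Callus III genes.

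Genes called at 8-fold or more were also set out by the tissue with the highest mean. The choice of genes fixes part of this, since Callus III cannot be highest among genes higher in Leaf, nor Leaf among those lower. Of the 1166 such genes higher in Leaf, Leaf had the highest mean of the 4 tissues for 1123 (96.3%), Callus I for 40 and Callus II for 3. Of the 621 lower in Leaf, Callus III had the highest mean for 417 (67.1%), Callus II for 103 (16.6%) and Callus I for 101 (16.3%). Over all 20730 genes the highest mean was in Leaf for 35.3%, Callus II for 32.7%, Callus I for 20.4% and Callus III for 11.7%.

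Callus III put its transcripts into fewer genes than Leaf did. In the Callus III libraries, 197 and 323 genes made up 50% of the FPKM sum, against 1163 and 1035 genes in Leaf. Without loci under 500 bp, where FPKM is least certain, the numbers were 338 and 575 in Callus III, against 1236 and 1194 in Leaf. Genes at 1000 FPKM or more numbered 58 and 50 in Callus III, more than the 34 and 37 of Leaf. Of the FPKM sum, the genes called lower in Leaf took 58.8% and 52.5% in Callus III but 14.1% and 14.0% in Leaf. Those called higher held 60.1% and 58.6% in Leaf and 12.5% and 14.0% in Callus III. These genes were chosen by the contrast of the same libraries, so the direction of these shares was set by the choice. The median over all genes compared was 6.796 and 7.888 FPKM in Callus III, below the 9.092 and 9.075 FPKM of Leaf.

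The direction of the difference followed the length of the locus, taken as its span on the chromosome, a property looked at after the data had been seen. Among 1221 genes with loci over 10 kb, 679 (55.6%) were called higher in Leaf and 160 (13.1%) lower, against 42.8% and 27.5% over all genes. The 1374 genes with loci up to 1 kb were almost even, with 481 (35.0%) higher and 502 (36.5%) lower. From the shortest to the longest of the 5 classes, the median log2 difference was -0.09, -0.06, 0.17, 0.39 and 0.51. The median of loci over 10 kb exceeded that of loci up to 2 kb by 0.58, with 0.56 to 0.62 in the 4 pairs of a Leaf and a Callus III library. It was 0.57 with median-ratio scaling and 0.56 with equal sums. Large differences in either direction were more frequent among short loci. At 8-fold or more, 121 (8.81%) of the genes up to 1 kb were called higher and 125 (9.1%) lower, against 33 (2.7%) and 14 (1.15%) of those over 10 kb. In the classes between, higher calls exceeded lower ones, at 9.65% against 7.8%, 5.35% against 2.05% and 3.57% against 0.75%.

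Within a library the scaling between libraries plays no part. The median FPKM of loci over 10 kb divided by that of loci up to 2 kb was 2.63 and 2.67 in Callus III, while Leaf had 3.93 and 3.76. Callus II had 4.08 and 3.83, close to Leaf, and Callus I 2.84 and 3.62. The Leaf and Callus III libraries did not overlap in this ratio, and the difference was not tested. Loci over 5 kb held 25.7% and 24.6% of the FPKM sum in Leaf and 16.8% and 17.7% in Callus III, and loci up to 2 kb held 26.0% and 28.7% against 44.3% and 41.9%. Long loci were also of higher level, so genes were split into 5 classes of mean level. In each class the median log2 difference of loci over 10 kb, between 0.36 and 0.74, exceeded that of loci up to 2 kb, between -0.48 and 0.17.

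**Figure D4:**
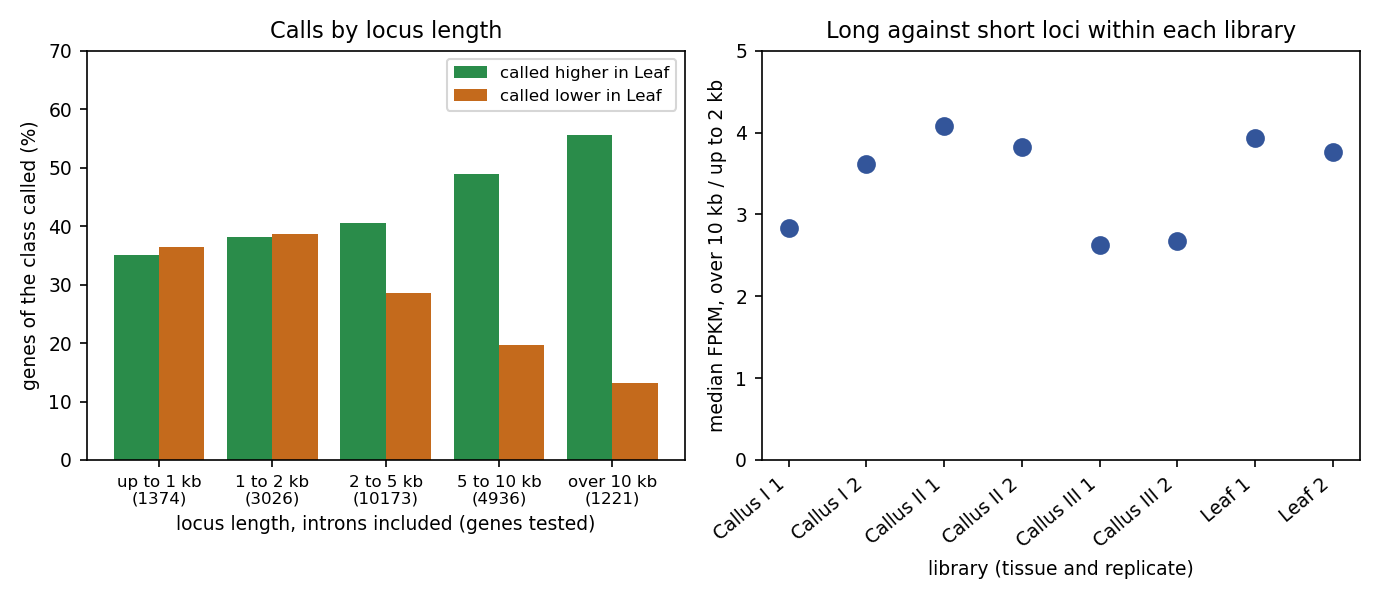
Left, the percentage of genes called higher (green) and lower (orange) in Leaf for 5 classes of locus length, with the number of genes tested in brackets; right, for each of the 8 libraries, the median FPKM of loci over 10 kb divided by that of loci up to 2 kb. Calls go from 35.0% higher and 36.5% lower in the shortest class to 55.6% and 13.1% in the longest, and the ratio is lowest in the Callus III libraries.

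Some genes that differed in the same direction lay side by side on the chromosomes. A run was taken as at least 5 neighbouring genes, among those compared, that were all called in 1 direction at 2-fold or more. There were 58 runs with 324 genes, 52 higher in Leaf (289 genes) and 6 lower (35 genes), where calls at 2-fold or more made up 26.6% and 16.7% of all genes. The longest had 12 genes higher and 8 genes lower. The balance of directions depended on scaling, with 37 higher and 12 lower runs after median-ratio scaling. Of neighbouring genes without overlapping loci that were both called, 57.3% went in the same direction, against 54.3% for genes 2 places apart and 52.2% for genes 50 places apart. The correlation of the log2 difference across 18043 neighbouring pairs was 0.104, a weak value across genes that are not independent. Runs and pairs include genes that reached 1 FPKM in 1 tissue alone. The filter set the direction of such genes, and counts without them were not computed. A filter on a mean of 5 FPKM left 15 runs.

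The longest run, higher in Leaf than in Callus III, covered 208.2 kb of chromosome 5, from 70394964 to 70603175. Its 12 genes had medians of 11.4 and 10.5 FPKM in Leaf and 0.066 and 0.081 FPKM in Callus III. In the Leaf libraries the genes ran from 2.11 to 70.9 FPKM, and in Callus III none exceeded 1.325 FPKM. Each gene was higher in both Leaf libraries than in either Callus III library, and the lowest of the 12 log2 differences was 1.58. Run genes were chosen for such differences in these same libraries, so this describes them and tests nothing. Most of these genes were under 1 FPKM in both Callus III libraries and passed the filter through Leaf alone. The third gene, 32.5 kb from the start of the run, was at 41.29 and 39.17 FPKM in Leaf and listed at 0 in all 6 callus libraries. So were the tenth and the eleventh, the latter reaching 70.94 and 56.95 FPKM in Leaf. Other genes of the run were present in Callus I, such as the fifth, at 5.946 and 6.222 FPKM there against 5.046 and 4.52 in Leaf. Callus II, the source of the leaves, held the twelfth at 1.929 and 10.46 FPKM, against 9.816 and 9.292 in Leaf, and the fourth at 3.753 and 8.188, against 17.66 and 16.8. Of the 12 genes, 5 were called lower in Callus III than in the mean of Callus I and Callus II, a call made for 34.8% of all genes compared. The run was chosen with the same Callus III libraries, so this count supports nothing about the run. In 3 of the 12 the locus overlaps another, and 7 of the 12 reached a mean of 5 FPKM over the 4 libraries.

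On chromosome 1, 10 neighbours from 21498988 to 21568651 were called higher in Leaf, mostly at low levels. Their medians were 3.8 and 3.2 FPKM in Leaf and 0 in both Callus III libraries, and none overlapped another locus. The first gene was the exception in Callus III, at 6.462 and 5.826 FPKM there against 14.35 and 13.21 in Leaf. All others were under 1 FPKM in both Callus III libraries, so they passed the filter through Leaf alone. The ninth gene, 62.8 kb into the run, had 60.09 and 67.74 FPKM in Leaf and 0.101 and 0 in Callus III. The eighth had 18.49 and 17.97 FPKM in Leaf and was listed at 0 in Callus III. Only 3 of the 10 reached a mean of 5 FPKM over the 4 libraries. These 3, already chosen as called, were called again under that filter.

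A further 9 neighbours on chromosome 5, from 14271998 to 14571702, had medians of 9.93 and 9.9 FPKM in Leaf and 0.419 and 0.618 in Callus III. Callus I held intermediate medians of 2.04 and 4.16 FPKM there, and Callus II 0.333 and 0.348. The fifth gene of this run was high in Leaf, at 30.79 and 34.8 FPKM, and in Callus I, at 25.05 and 23.14 FPKM. It was low in Callus II, at 0.314 and 0.348 FPKM, as in Callus III, at 0.487 and 0.945 FPKM. With 5 untested genes in between, the whole unfiltered stretch had a median log2 difference of 1.25, against 2.88 for the run. Of the 9 genes, 4 reached a mean of 5 FPKM over the 4 libraries.

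Of the 6 runs lower in Leaf, a run of 5 genes lay on chromosome 1 from 25200840 to 25332625. Its first 3 genes were abundant in callus and listed at 0 in both Leaf libraries. In Callus III they stood at 132.4 and 129.7 FPKM, 281.4 and 252.0 FPKM, and 238.9 and 271.6 FPKM. The first was lower in the other callus types, at 11.76 to 27.36 FPKM over their 4 libraries. The second was at 183.3 to 423.3 FPKM there, and the third reached 443.2 and 856.2 in Callus I. The remaining 2 genes were at 1.186 to 11.84 FPKM in Callus III and 0.079 to 2.08 in Leaf.

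The longest run lower in Leaf had 8 genes, from 68610741 to 68698537 on chromosome 1, with medians of 56.8 and 71.1 FPKM in Callus III, against 5.29 and 5.85 in Leaf. The third gene had 700.9 and 631.6 FPKM in Callus III but 3.944 and 4.084 in Leaf, a log2 difference of -7.05 (limma adjusted p = 2.26e-07). It was as abundant in Callus I, at 705.5 and 558.4 FPKM, and lower in Callus II, at 121.2 and 82.56. The second gene was highest in Callus III, at 383.7 and 381.8 FPKM, against 2.882 and 3.047 in Leaf and 41.11 to 92.85 in the other callus libraries. Loci of 7 of the 8 were 858 to 1134 bp long.

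A run of 5 genes lay some way before it, from 68235425 to 68264126. Its first gene had 697.5 and 564.7 FPKM in Callus III, against 4.52 and 3.812 in Leaf and at most 0.552 in Callus I and Callus II. Its second gene was at 25.46 to 34.69 FPKM in all 6 callus libraries and at 9.28 and 8.969 in Leaf. Within this run the callus types thus differed from each other in some genes and were alike in level in others.

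The other 3 runs lower in Leaf lay on chromosomes 6, 2 and 3. The 7 genes on chromosome 6 from 57419857 to 57439647 had medians of 22.8 and 20.1 FPKM in Callus III, 5.89 and 4.04 in Leaf and 24.4 to 57.0 in the other callus libraries. Without Leaf replicate 2, 4 of the 7 were still called at 2-fold or more. The fourth gene had 200.2 and 155.4 FPKM in Callus III against 5.886 and 4.035 in Leaf. On chromosome 2, from 73735312 to 73833394, 5 genes had medians of 3.55 and 6.73 FPKM in Callus III, against 0.579 and 0.383 in Leaf. On chromosome 3, from 65196511 to 65236084, the medians of 5 genes were 4.27 and 5.78 against 0.56 and 0.291 FPKM.

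**Figure D5:**
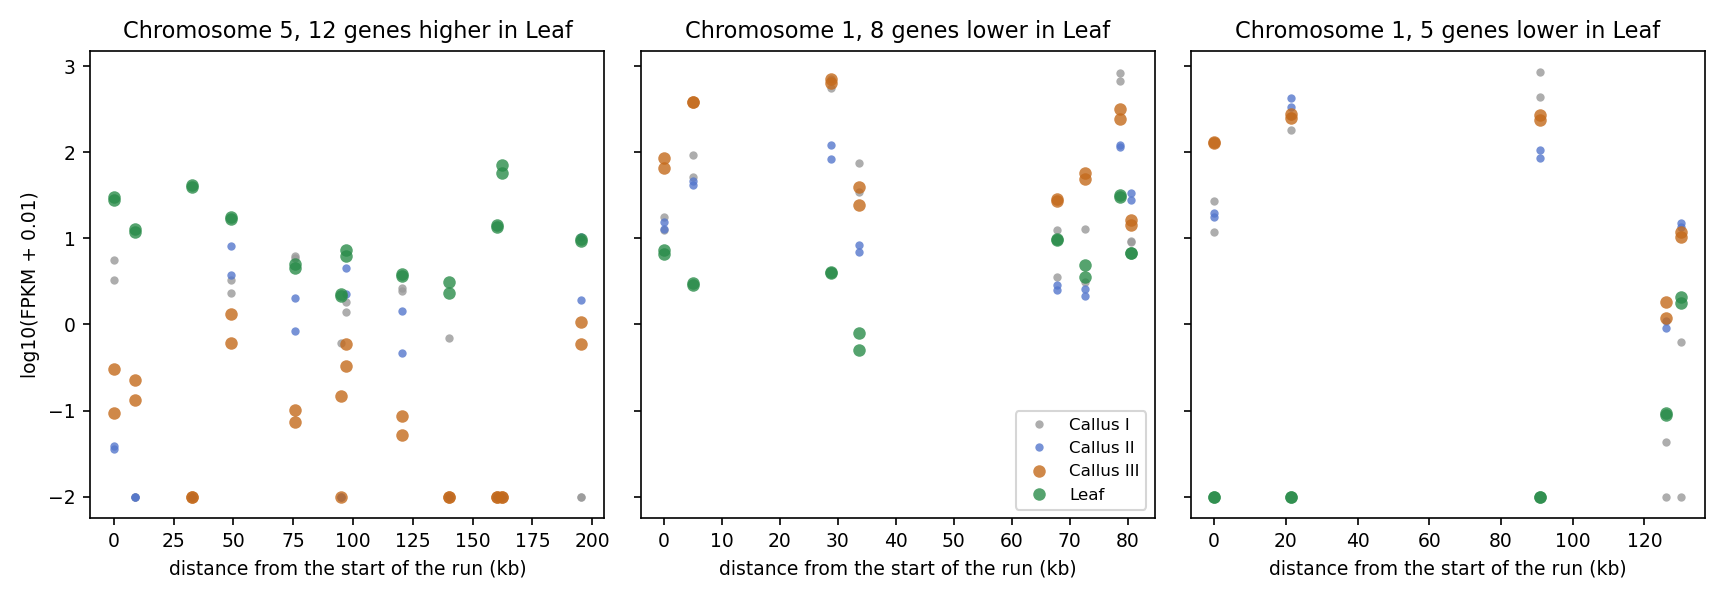
Each point is the log10(FPKM + 0.01) of 1 gene in 1 library, placed by its distance in kb from the start of its run, for the 12 genes on chromosome 5 higher in Leaf (left) and the runs of 8 and 5 genes on chromosome 1 lower in Leaf (middle, right). Leaf (green) lies above Callus III (orange) at every gene on the left and below it at every gene in the other panels. The genes were chosen by that difference. The first 3 genes on the right are at 0 in Leaf.

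For a part of the genes compared, the difference between the tissues lay within narrow bounds on the log2 scale with the pseudocount. That scale understates changes of low genes, so the FPKM of such genes may differ by more than 2-fold inside these bounds. Among the 6169 genes not called, the 95% interval of the difference lay inside 2-fold in either direction for 5036 and reached 2-fold for 1133. A further 2429 genes were called with an interval inside 2-fold. In all, 7465 genes had such an interval, and 4026 of them had a mean of at least 10 FPKM over the 4 libraries. For the 1133 genes a difference of 2-fold could not be told from none with these libraries.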

How the data were processed

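The authors deposited 1 file per library with an FPKM value for each gene, as the file headers name it. Trimmomatic, TopHat2 2.0 and Cuffdiff were used, per the submitters' processing notes, which state no roles. Not given in the sources used here are the build, annotation, settings and use of strand. Files were joined by identifier. Locus starts were printed with 1 added, because 884 starts then equalled one in an NCBIv3 gene table of 32945 genes and 345 did as deposited. Loci overlapping another made up 12.7% of genes tested.

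Values were taken as log2(FPKM + 1), which understates changes of low genes, and limma 3.58.1 (R 4.3.3) was run on all 8 libraries with a mean for each of the 4 groups, a variance trend and 2-sided tests. The fit was tested on simulated data with 200 of 20730 genes changed. It recovered 54% of the genes changed by 1 log2 unit and 87% of those changed by 2, with 7 false among 148 calls. The changed genes were drawn only from those at or above a set mean level, so recovery among low genes was not tested. A majority of genes was called in the real data, so these rates need not apply there. Calls used a Benjamini-Hochberg adjusted p under 0.05 over all 20730 genes. The rule for named genes took called genes with non-overlapping groups, 10 FPKM or more on average in the higher group and a locus of at least 500 bp, by log2 difference. It also asked for a description, which no gene had, so 2 are named per direction. Abundant genes that were not called and the longest runs were also named by rule. The 38 gene lists written for this tissue needed descriptions and had 0 members. The descriptions by length, on and off state, chromosome and neighbours were added after the data had been seen. Members and lists were chosen with earlier results of these data known.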

Additional observations from a re-analysis of the deposited data

How the results depend on the processing

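The count of genes called between Leaf and Callus III stayed within 1.5 times the reported one under every alternative run, from 11540 to 13538 when 1 library was left out. Lower calls numbered 3651 among the 13748 genes left by a filter on a mean of 5 FPKM, and 4393 to 5599 with 1 library left out. Genes at 8-fold or more numbered 2434 higher and 1270 lower with a pseudocount of 0.1 FPKM. The number of runs depended on the filter. The filter on a mean of 5 FPKM left 15 runs, 13 higher and 2 lower, and with no filter 26, 23 higher and 3 lower. Higher runs numbered 34 with equal sums. Lower runs numbered 12 with median-ratio scaling, 13 with equal sums and 16 with a pseudocount of 0.1 FPKM. Leaving out 1 library gave 48 to 68 runs, 40 to 62 higher and 4 to 11 lower, the 11 without Callus III replicate 1. For Callus III against the other callus types, lower calls numbered 4690 with equal sums, 4771 with a mean of at least 5 FPKM, and 4710 to 6885 without a Callus III replicate. The cause was not tested. The difference between long and short loci was 0.37 with no filter and 0.78 with a mean of at least 5 FPKM, and kept its sign under all alternatives run. With the replicate number as a block, 14232 genes and 57 runs were called. The numbers do not pair the libraries by the labels, and the differences between replicates correlated at -0.014 between Callus III and Leaf. Depth is unknown, so levels near 0 are the least certain.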

Other observations

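Both of the most abundant entries of Callus III were short loci that limma did not call, and each is named because it was among the 5 highest in that tissue. Sobic.004G211866.v3.2 (chromosome 4, 56151997 to 56152243, 247 bp) had 52262 and 52732 FPKM in Callus III, against 15603 and 10023 in Leaf. Its log2 difference was -2.07 with a 95% interval of -4.42 to 0.28 (limma adjusted p = 0.0999). Fitted on the Leaf and Callus III libraries alone it had an adjusted p of 0.0368 in limma, and 0.0378 when genes under a mean of 5 FPKM were left out, within a range of 0.0368 to 0.713 over the alternatives run. Sobic.002G206750.v3.2 (chromosome 2, 59828774 to 59829037, 264 bp) had 29127 and 44430 FPKM in Callus III, while the Leaf libraries had 0 and 20764 (limma adjusted p = 0.34). It was also listed at 0 in replicate 2 of Callus I and of Callus II, beside 30153 and 67669 FPKM in replicate 1. Its share of the FPKM sum was 3.95% and 6.17% in Callus III.

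Chromosome 5 had the lowest share of genes that passed the filter. There 1053 of 2436 genes (43.2%) passed the filter, against 53.6% to 65.9% on the other chromosomes. Of those tested on chromosome 5, 47.2% were called higher in Leaf and 23.0% lower, with a median log2 difference of 0.41. On the other chromosomes the higher calls made up 39.8% to 45.0%, the lower calls at least 25.3% and the medians were 0.16 to 0.29. At 8-fold or more, 8.07% of the genes tested on chromosome 5 were higher in Leaf and 2.28% lower, against 7.09% and 1.93% on chromosome 8 and 5.62% and 3.0% over all genes.

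Among the 20730 genes, the correlation of log2(FPKM + 1) of Leaf libraries with Callus III libraries was 0.532 to 0.534. With Callus II it was 0.518 to 0.539 and with Callus I 0.491 to 0.512. These genes were selected on Leaf and Callus III alone, and genes are not independent of each other.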
